A study of Homo sapiens with 6 samples.

Results

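NRF2, glutathione and antioxidant genes were followed as a set of 35 genes in SH-SY5Y cells after a hairpin RNA against TARDBP. The members were taken by gene symbol, with earlier results of these data known. They cover NRF2 with its regulators, haem and quinone detoxification, glutathione synthesis, the thioredoxin and peroxiredoxin system, peroxidases, the NADPH supply, iron storage, and conjugation and export. All 35 symbols were found among the 28953 features counted (27961 genes and 992 repeat families), and all 35 were among the 17163 features with enough counts to test, MGST1 through the TARDBP hairpin libraries, where it was high. The RNA-binding protein TDP-43 is the product of TARDBP, and SH-SY5Y is an established human neuroblastoma line.

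All cells were infected with hairpin virus in the presence of 8 µg/mL polybrene and then, from 48 hours after infection, kept for 3 days in 2 µg/mL puromycin, so the controls share the infection and the drug. The 3 groups were the TARDBP hairpin, control hairpin 1 (SHC007) and control hairpin 2 (SHC016), with 2 libraries each. TARDBP was targeted by a single hairpin sequence, so effects of that sequence on other transcripts cannot be told apart from effects of lower TARDBP. Nothing in the labels tells if the libraries of 1 hairpin were grown as separate cultures, so every p-value measures the spread between libraries, which may be technical.

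NRF2, encoded by NFE2L2, is a transcription factor that KEAP1 holds at low level by directing it to degradation. When oxidants or electrophiles modify KEAP1, NRF2 accumulates, pairs with a small MAF protein such as MAFG or MAFF, and binds antioxidant response elements near genes for detoxification, glutathione, thioredoxin, NADPH and iron handling. NRF2 is therefore controlled largely as a protein, and the values here are RNA levels.

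Total RNA depleted of ribosomal RNA was sequenced to between 18605745 and 21698339 counts per library. TARDBP itself was at 18.9 and 24.00 CPM with the TARDBP hairpin, against 80.9 and 72.4 CPM with control hairpin 1, and 92.7 and 81.5 CPM with control hairpin 2. Its level with the TARDBP hairpin was 0.263 times the mean of both controls (log2FC -1.93, SE 0.126, adjusted p = 1.68e-05). In each group the replicates differed by more than sampling noise. Of 10 markers of noradrenergic neuroblastoma, 9 passed the filter, while TH, which encodes tyrosine hydroxylase, had 0 to 3 counts per library. Against the mean of both controls, 7 of the 9 fell and GATA3 rose. Summed over that list, the level was 1021 to 1154 CPM with the TARDBP hairpin, against 2002 to 2248 CPM with control hairpin 1 and 1489 to 1677 CPM with control hairpin 2. Markers of the mesenchymal neuroblastoma state (PRRX1 at 0) summed to 2710 to 2993 CPM, against 1619 to 1954 CPM with control hairpin 1 and 4312 to 4595 CPM with control hairpin 2. Fibroblast markers summed to 287 to 330.4 CPM, against 1494 to 1508 and 1871 to 1995 CPM with control hairpins 1 and 2, and epithelial markers to 29.4 to 36.0 CPM, against 10.8 to 15.3 and 82.8 to 133 CPM. The fibroblast sum was carried by COL3A1 in the controls. COL3A1, COL1A1, COL1A2, LUM and PDGFRB of that list fell against the mean and against each control, while DCN and PDGFRA rose in the same comparisons. THY1 fell against control hairpin 2 alone. The epithelial sum was carried by KRT18, which rose against control hairpin 1 (log2FC 1.301) and fell against control hairpin 2 (log2FC -2.226). KRT8 rose against control hairpin 1 (log2FC 1.705) and was not called against control hairpin 2. Neither was called against the mean. EPCAM of that list rose against the mean and each control, and KRT19 fell against the mean and control hairpin 1. Over all 6 libraries the microglial list summed to 6.03 to 19.2 CPM with AIF1 and C1QA at 0, the astrocyte list to 1.12 to 3.36 CPM and the endothelial list to 0.364 to 1.32 CPM with CDH5 at 0. The part of these differences in the results that follow was not tested.

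Relative to the mean of both controls, 19 of the 35 members changed, 8 higher and 11 lower, which is 54.3% of them, where 48.2% of all features tested were called, 23.9% higher and 24.3% lower. That share is near the background and is not a result about these genes. Without MGST1, which had to be high to be tested, 18 of 34 were called. The members' median log2 fold change (log2FC) was -0.14, and that of all features was 0.04. A call here is an adjusted p under 0.05 from edgeR's quasi-likelihood test with Benjamini-Hochberg adjustment over all features, and levels are CPM, counts scaled to library size. Because the samples are bulk RNA, fewer cells of a type and less RNA per cell cannot be told apart.

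Against control hairpin 1 alone, 16 members were called, 8 in each direction, against a background of 42.9% (21.1% higher, 21.8% lower). Against control hairpin 2 alone, 19 were called, 6 higher and 13 lower, against a background of 50.2% (24.0% higher, 26.2% lower). These comparisons share the TARDBP hairpin libraries. The 12 members called the same way against the mean and against each control are 34.3% of the set, where 24.6% of all features met that rule. They were NFE2L2, NQO1, OSGIN1, GCLM and MGST1, which were higher (14.3% of members, background 10.6%), and MAFG, HMOX2, GSR, SRXN1, PRDX5, CAT and PGD, which were lower (7 of 35, background 14.0%). Leaving out MGST1, 11 of 34 members (32.4%) met the rule and 4 of 34 (11.8%) were higher. Because the members were chosen with earlier results of these data known, a share above the background is not independent support. None was called in opposite directions against the 2 controls, where 2.96% of all features were. In CPM, both TARDBP hairpin libraries lay above all 4 control libraries for 6 members and below them for 10, or 17.1% and 28.6%, against 23.3% and 22.8% of all features (46.1% outside the controls on either side).

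**Figure D1:**
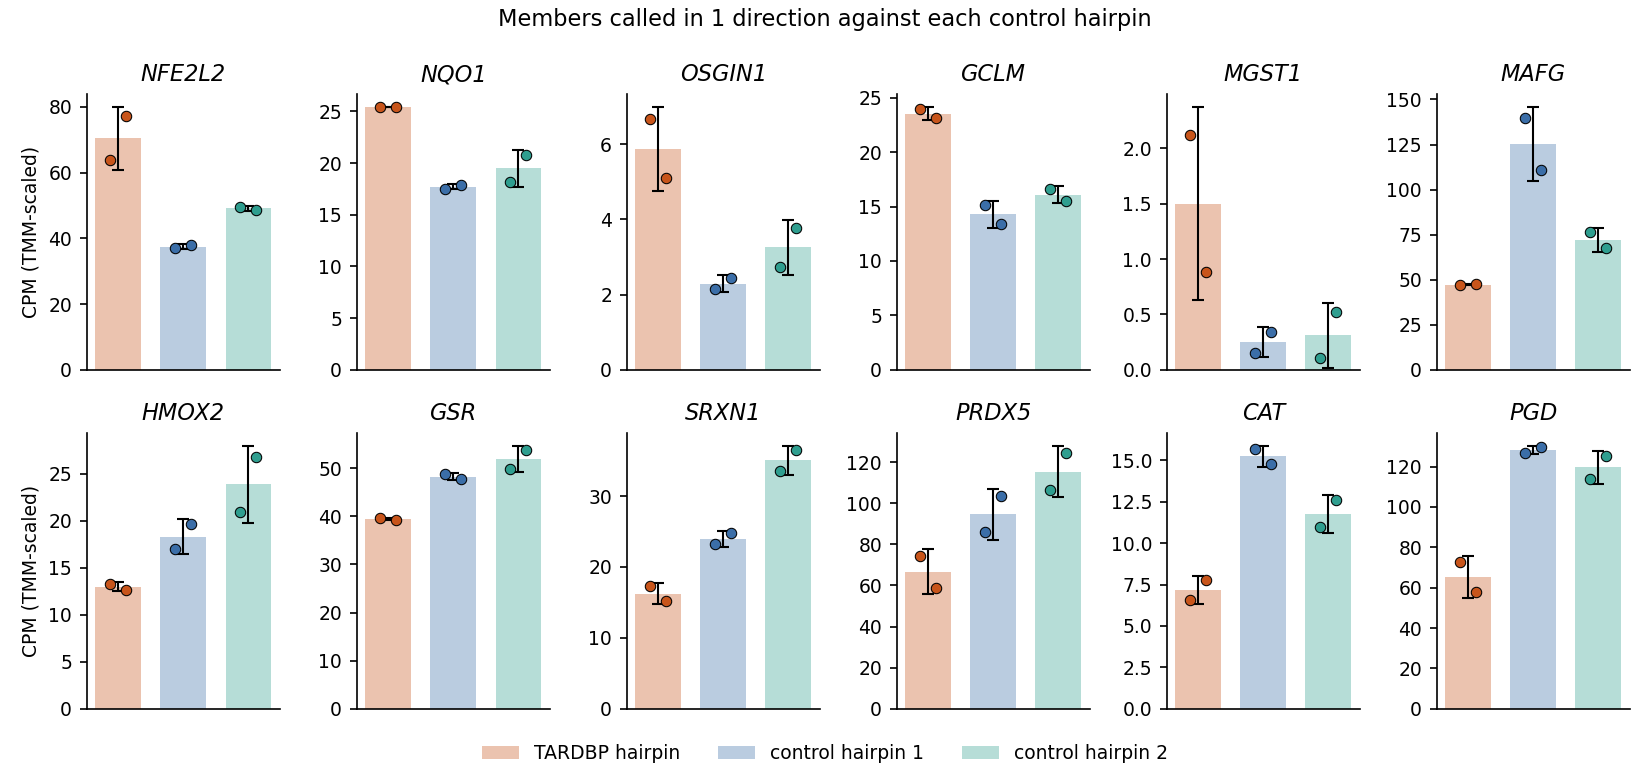
Level in CPM of the 12 members called in the same direction against the mean and against each control hairpin, 1 panel per gene with its own axis from 0: points are libraries, bars the mean and whiskers the SD of 2 libraries, with the TARDBP hairpin at the left of each panel and the control hairpins to its right. NFE2L2, NQO1, OSGIN1, GCLM and MGST1 are higher with the TARDBP hairpin and the other 7 are lower, and MGST1 has far fewer counts than the rest.

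The count of members called, like that of all features, depended on how the controls were treated and on single libraries. With the 4 control libraries pooled as 1 group, 6 members were called: NFE2L2, OSGIN1, GCLM and MGST1 higher, CAT and PGD lower. When the test asked for more than a 1.5-fold change, 6 were called against the mean: OSGIN1 and MGST1 higher, MAFG, SRXN1, CAT and PGD lower. MGST1 had to be high to be tested, so its place in both lists is no support for a rise. Over all 17163 features tested, 8269 were called against the mean in the main fit, 2572 with the controls pooled and 2462 beyond 1.5-fold. The drop in calls was therefore not particular to the members. Fewer members, and fewer of all features, were higher against the mean without replicate 1 of the TARDBP hairpin or of control hairpin 1. Against control hairpin 1, fewer of both were higher without 1 or the other of these libraries. Fewer of both were lower against that control without replicate 2 of the TARDBP hairpin. Against control hairpin 2, fewer of both were higher without replicate 1 of the TARDBP hairpin or without either library of control hairpin 2. In each of these fits the members fell by a larger share than all features, and that difference was not tested. Of the 19 calls against the mean, 11 held when each library was left out in turn, as did 10 of the 16 against control hairpin 1 and 12 of the 19 against control hairpin 2. How many calls of all features held in this way was not counted, so these are not results about the members. The 9 members called in none of the 4 comparisons were KEAP1, MAFF, TXNRD1, GPX1, GPX4, SOD2, TKT, ME1 and ABCC1, whose log2FC against the mean lay between -0.29 and 0.16.

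**Figure D2:**
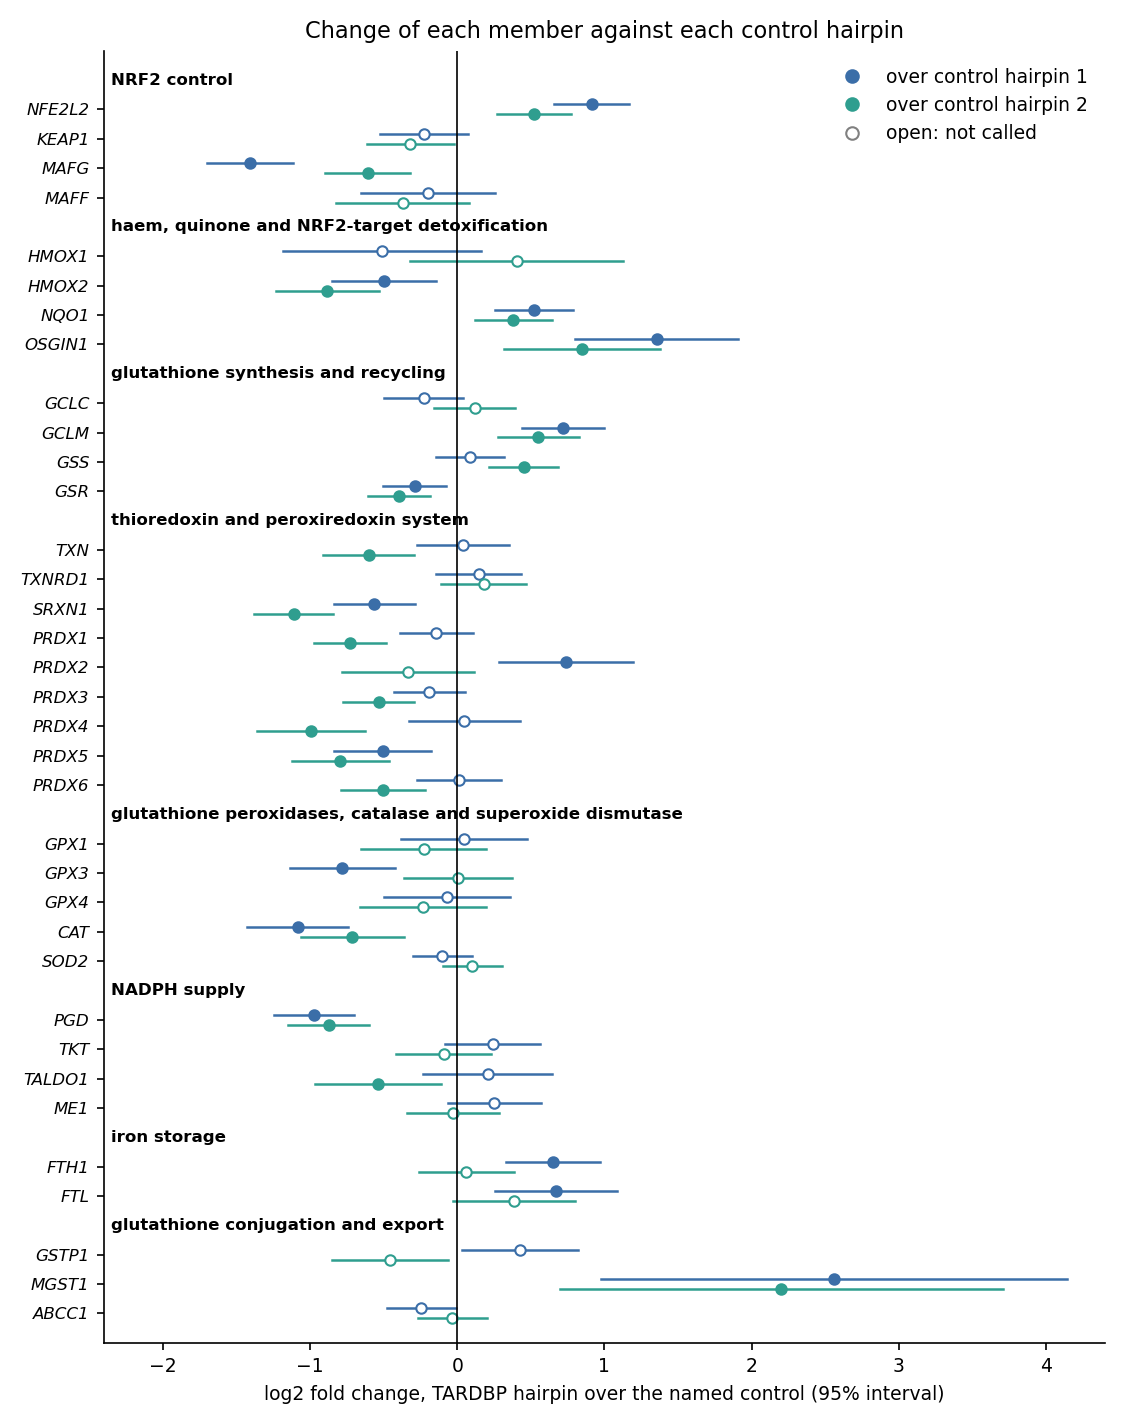
Log2 fold change (horizontal axis, with its 95% interval) of each of the 35 members with the TARDBP hairpin over control hairpin 1 (blue) and over control hairpin 2 (green), in role groups down the page; filled points were called and open points were not. The 12 members called against both controls have both filled points on the same side of 0, while most thioredoxin and peroxiredoxin members lie further to the left over control hairpin 2 than over control hairpin 1.

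The regulators of NRF2 were mixed. NFE2L2 RNA was at 63.7 and 77.3 CPM with the TARDBP hairpin, against 36.96 and 37.9 CPM with control hairpin 1, and 49.6 and 48.6 CPM with control hairpin 2. Both TARDBP hairpin libraries were above all 4 controls, and control hairpin 2 lay above control hairpin 1. NFE2L2 rose 1.64-fold against the mean of both controls (log2FC 0.72, SE 0.0936, adjusted p = 4.57e-04), with a log2FC of 0.91 against control hairpin 1 and 0.52 against control hairpin 2.

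KEAP1, the adaptor that directs NRF2 to degradation, was at 40.2 and 33.2 CPM with the TARDBP hairpin, against 40.6 and 45.2 CPM with control hairpin 1, and 42.2 and 49.3 CPM with control hairpin 2. Both TARDBP hairpin libraries were the lowest of the 6, but the difference from the mean was not called (log2FC -0.27, SE 0.114, adjusted p = 0.0817, 95% interval -0.53 to -0.01). MAFG, a small MAF partner of NRF2, was at 46.97 and 47.5 CPM with the TARDBP hairpin, against 140.0 and 111 CPM with control hairpin 1, and 76.6 and 67.4 CPM with control hairpin 2. The 3 groups did not overlap, with control hairpin 1 the highest, and MAFG fell to 0.497 times the controls' mean (log2FC -1.01, SE 0.114, adjusted p = 2.17e-04). The fall had a log2FC of -1.41 against control hairpin 1 and -0.61 against control hairpin 2, and the controls themselves differed (log2FC -0.80 for control hairpin 2 against control hairpin 1, adjusted p = 0.00149). With the 4 controls pooled, the fall of MAFG was no longer called (adjusted p = 0.0665). MAFF, another small MAF, overlapped control hairpin 1 and was called in none of the 4 comparisons.

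HMOX1 and HMOX2 encode haem oxygenases, which break down haem, and NQO1 encodes a quinone reductase used as a standard readout of NRF2. HMOX1, the inducible enzyme, was at 2.90 and 2.23 CPM with the TARDBP hairpin, against 4.64 and 2.69 CPM with control hairpin 1, and 1.90 and 1.98 CPM with control hairpin 2. The TARDBP hairpin libraries overlapped control hairpin 1 and lay above control hairpin 2, and HMOX1 was not called against the mean (log2FC -0.05, SE 0.266, adjusted p = 0.883, 95% interval -0.66 to 0.55). HMOX2, the constitutive enzyme, was at 13.3 and 12.6 CPM with the TARDBP hairpin, 16.98 and 19.6 CPM with control hairpin 1, and 20.95 and 26.8 CPM with control hairpin 2. It was lowest in both TARDBP hairpin libraries and fell (log2FC -0.69, SE 0.136, adjusted p = 0.00353). Its call against control hairpin 1 (adjusted p = 0.0298) was lost when either TARDBP hairpin library or replicate 2 of control hairpin 1 was left out.

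NQO1 was at 25.5 and 25.4 CPM with the TARDBP hairpin, against 17.5 and 17.9 CPM with control hairpin 1, and 18.2 and 20.8 CPM with control hairpin 2. It was highest in both TARDBP hairpin libraries and rose 1.37-fold against the mean (log2FC 0.45, SE 0.0986, adjusted p = 0.00594). The rise over control hairpin 2 alone had an adjusted p of 0.0237 and was lost when any single library of that pair of groups was left out. OSGIN1, a growth inhibitor named for its induction by oxidative stress, was at 6.67 and 5.09 CPM with the TARDBP hairpin, against 2.14 and 2.45 CPM with control hairpin 1, and 2.74 and 3.77 CPM with control hairpin 2. Its groups did not overlap, and it rose 2.15-fold (log2FC 1.10, SE 0.199, adjusted p = 0.00232). Its rise over control hairpin 2 alone was lost without replicate 1 of the TARDBP hairpin (adjusted p = 0.0908) or without replicate 1 of control hairpin 2 (adjusted p = 0.105).

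In glutathione synthesis and recycling, 2 of 4 members rose and 1 fell against the mean, where 23.9% of all features rose and 24.3% fell. Glutamate-cysteine ligase joins glutamate to cysteine, with GCLC as its catalytic and GCLM as its modifier subunit. GCLM was at 24.00 and 23.1 CPM with the TARDBP hairpin, against 15.2 and 13.4 CPM with control hairpin 1, and 16.6 and 15.5 CPM with control hairpin 2. Both TARDBP hairpin libraries were above all 4 controls, and GCLM rose 1.55-fold against the mean (log2FC 0.64, SE 0.103, adjusted p = 0.00136), with a log2FC of 0.72 against control hairpin 1 and 0.55 against control hairpin 2. The last of these was lost without replicate 2 of control hairpin 2 (log2FC 0.46, adjusted p = 0.0617).

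GCLC was at 21.4 and 23.3 CPM with the TARDBP hairpin, against 28.04 and 24.3 CPM with control hairpin 1, and 20.5 and 20.6 CPM with control hairpin 2. The TARDBP hairpin libraries lay between the controls, and the difference from their mean was not called (log2FC -0.06, SE 0.103, adjusted p = 0.684, 95% interval -0.29 to 0.18). GSS, glutathione synthetase, which adds glycine in the second step, was at 30.5 and 31.3 CPM with the TARDBP hairpin, 29.6 and 28.5 CPM with control hairpin 1, and 23.3 and 21.95 CPM with control hairpin 2. GSS rose against the mean with an adjusted p of 0.0325, a call that was lost when any 1 of the 6 libraries was left out, with no scaling factor and with no filter on low counts. GSR, glutathione reductase, which restores reduced glutathione with NADPH, was at 39.7 and 39.3 CPM with the TARDBP hairpin, 48.7 and 47.8 CPM with control hairpin 1, and 49.96 and 53.9 CPM with control hairpin 2. It was lowest in both TARDBP hairpin libraries and fell to 0.788 times the mean (log2FC -0.34, SE 0.0812, adjusted p = 0.00858), a call lost without replicate 2 of the TARDBP hairpin (adjusted p = 0.0573). Its call against control hairpin 1 alone was lost without any 1 of 4 libraries.

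Promoter sequence from RefSeq (GRCh38.p14) is shown for GCLM, which rose, PGD, which fell, and TXNRD1, which was not called, because each of these NRF2 pathway genes holds the core letters of an antioxidant response element in the stretch printed. Each run is given 5′ to 3′ on the gene's strand, from 250 bases before the start to the first transcribed base, with matches to TGACNNNGC on either strand in capitals. The windows are chr1:93909430-93909680 on the minus strand for GCLM, chr1:10398814-10399064 on the plus strand for PGD and chr12:104215529-104215779 on the plus strand for TXNRD1. TXNRD1 has 2 windows at different starts, both with a match, and the one with more matches was picked for printing.
GCLM: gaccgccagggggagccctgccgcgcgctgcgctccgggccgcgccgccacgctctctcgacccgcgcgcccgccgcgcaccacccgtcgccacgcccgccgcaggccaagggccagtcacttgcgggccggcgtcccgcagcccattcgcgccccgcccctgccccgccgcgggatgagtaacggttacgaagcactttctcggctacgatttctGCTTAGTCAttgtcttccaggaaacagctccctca
PGD: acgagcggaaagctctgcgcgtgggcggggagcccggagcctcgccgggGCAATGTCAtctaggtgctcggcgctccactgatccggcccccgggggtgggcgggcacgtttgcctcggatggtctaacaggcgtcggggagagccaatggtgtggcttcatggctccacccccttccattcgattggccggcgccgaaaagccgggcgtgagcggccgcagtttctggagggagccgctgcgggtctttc
TXNRD1: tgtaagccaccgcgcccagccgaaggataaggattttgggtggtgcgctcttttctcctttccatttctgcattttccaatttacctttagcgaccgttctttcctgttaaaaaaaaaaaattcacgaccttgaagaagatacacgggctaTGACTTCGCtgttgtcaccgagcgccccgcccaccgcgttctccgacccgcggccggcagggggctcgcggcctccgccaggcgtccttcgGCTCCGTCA

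Windows of 300 bases, from 250 before to 50 after the start, were held for 28 of the members. The letters TGACNNNGC occurred, on either strand, in the windows of 8 of these 28: KEAP1, MAFF, GCLM, TXNRD1, PGD, ME1, GSTP1 and MGST1. Counted by window, 9 of the members' 41 windows held them in all, where the share among all 35116 such windows was 13.3%. By outcome against the mean of both controls, the letters were in 2 of 6 members that rose, 1 of 9 that fell and 5 of 13 that were not called. The 2 that rose were GCLM and MGST1, and MGST1 had to be high to be tested. No difference between these outcomes was tested. The match in GSTP1 and 1 of the matches in ME1 hold the AP-1 letters TGANTCA within them, as 3.91% of all matches did. A match is a string of letters and not a measured binding site. Sequence outside these windows was not searched, so a window with no match does not show that a gene lacks such an element.

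Thioredoxin reduces protein disulphides with electrons that thioredoxin reductase takes from NADPH, and peroxiredoxins pass such electrons on to peroxides. Of the 9 members in this system, 5 fell and none rose against the mean of both controls, with a median log2FC of -0.36, where 24.3% of all features fell and 23.9% rose. Against control hairpin 2, 7 fell and none rose, and the median was -0.60, where 26.2% of all features fell and 24.0% rose. Against control hairpin 1, 1 rose and 2 fell, with a median of 0.01, where 21.1% of all features rose and 21.8% fell. The controls differed from each other too: 7 of the 9 were higher in control hairpin 2 than in control hairpin 1, with a median of 0.55, and none was lower, where 22.8% of all features were higher and 20.4% lower. Over all features tested, the medians of these 4 comparisons lay between -0.01 and 0.04.

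SRXN1, sulfiredoxin, which repairs over-oxidised peroxiredoxins, was at 17.3 and 15.2 CPM with the TARDBP hairpin, against 23.2 and 24.7 CPM with control hairpin 1, and 33.6 and 36.5 CPM with control hairpin 2. The 3 groups did not overlap, with the TARDBP hairpin lowest and control hairpin 2 highest. SRXN1 fell to 0.560 times the mean (log2FC -0.84, SE 0.106, adjusted p = 3.85e-04), with a log2FC of -0.56 against control hairpin 1 and -1.11 against control hairpin 2. PRDX5, a peroxiredoxin of mitochondria, peroxisomes and cytosol, was at 74.3 and 58.8 CPM with the TARDBP hairpin, against 85.8 and 103 CPM with control hairpin 1, and 106 and 124 CPM with control hairpin 2. It was lowest in both TARDBP hairpin libraries and fell (log2FC -0.65, SE 0.127, adjusted p = 0.00346). Against control hairpin 1 alone, the fall of PRDX5 was lost without replicate 2 of the TARDBP hairpin (adjusted p = 0.123) or replicate 2 of control hairpin 1 (adjusted p = 0.121).

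TXNRD1, cytosolic thioredoxin reductase and a standard NRF2 target, was at 115 and 119 CPM with the TARDBP hairpin, against 119 and 92.7 CPM with control hairpin 1, and 109.6 and 97.05 CPM with control hairpin 2. Both TARDBP hairpin libraries lay between those of control hairpin 1 and above control hairpin 2, and the difference from the mean was not called (log2FC 0.16, SE 0.109, adjusted p = 0.245, 95% interval -0.09 to 0.41). PRDX1, PRDX3 and PRDX4, which are cytosolic, mitochondrial and in the endoplasmic reticulum, fell against the mean and against control hairpin 2 but were not called against control hairpin 1. PRDX4 was at 21.3 and 17.2 CPM with the TARDBP hairpin, against 16.98 and 20.2 CPM with control hairpin 1, and 34.1 and 42.5 CPM with control hairpin 2. Libraries with the TARDBP hairpin overlapped control hairpin 1 and lay below control hairpin 2. The difference between the controls in PRDX4 was larger (log2FC 1.04, adjusted p = 0.00142) than its difference from the controls' mean (log2FC -0.47, SE 0.143, adjusted p = 0.0246), which was lost without replicate 2 of any of the 3 groups. The PRDX3 call against the mean was lost without replicate 1 of the TARDBP hairpin (adjusted p = 0.107).

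PRDX2, a cytosolic peroxiredoxin, was at 96.9 and 79.05 CPM with the TARDBP hairpin, against 42.9 and 62.4 CPM with control hairpin 1, and 95.1 and 127 CPM with control hairpin 2. It was higher than control hairpin 1 (log2FC 0.74, SE 0.200, adjusted p = 0.0172) and was called neither against control hairpin 2 (adjusted p = 0.184) nor against the mean. That rise was lost without replicate 1 of the TARDBP hairpin (adjusted p = 0.0932) or replicate 1 of control hairpin 1 (adjusted p = 0.103). TXN, thioredoxin itself, and PRDX6 fell against control hairpin 2 and were called against neither control hairpin 1 nor the mean, with adjusted p of 0.00669 and 0.0103 against control hairpin 2. The PRDX6 call was lost without replicate 2 of control hairpin 2 (adjusted p = 0.0591). The summed mesenchymal markers given above were also highest in control hairpin 2, as the mean levels of TXN, PRDX2, PRDX4 and PRDX6 were. FN1 carried that order in the sum, and FOSL1, FOSL2, SNAI2, TWIST1 and WWTR1 also had their highest mean level in control hairpin 2. VIM, YAP1 and CD44 of the same list had theirs with the TARDBP hairpin, and VIM and YAP1 rose against both controls. The part of these markers in the differences was not tested.

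**Figure D3:**
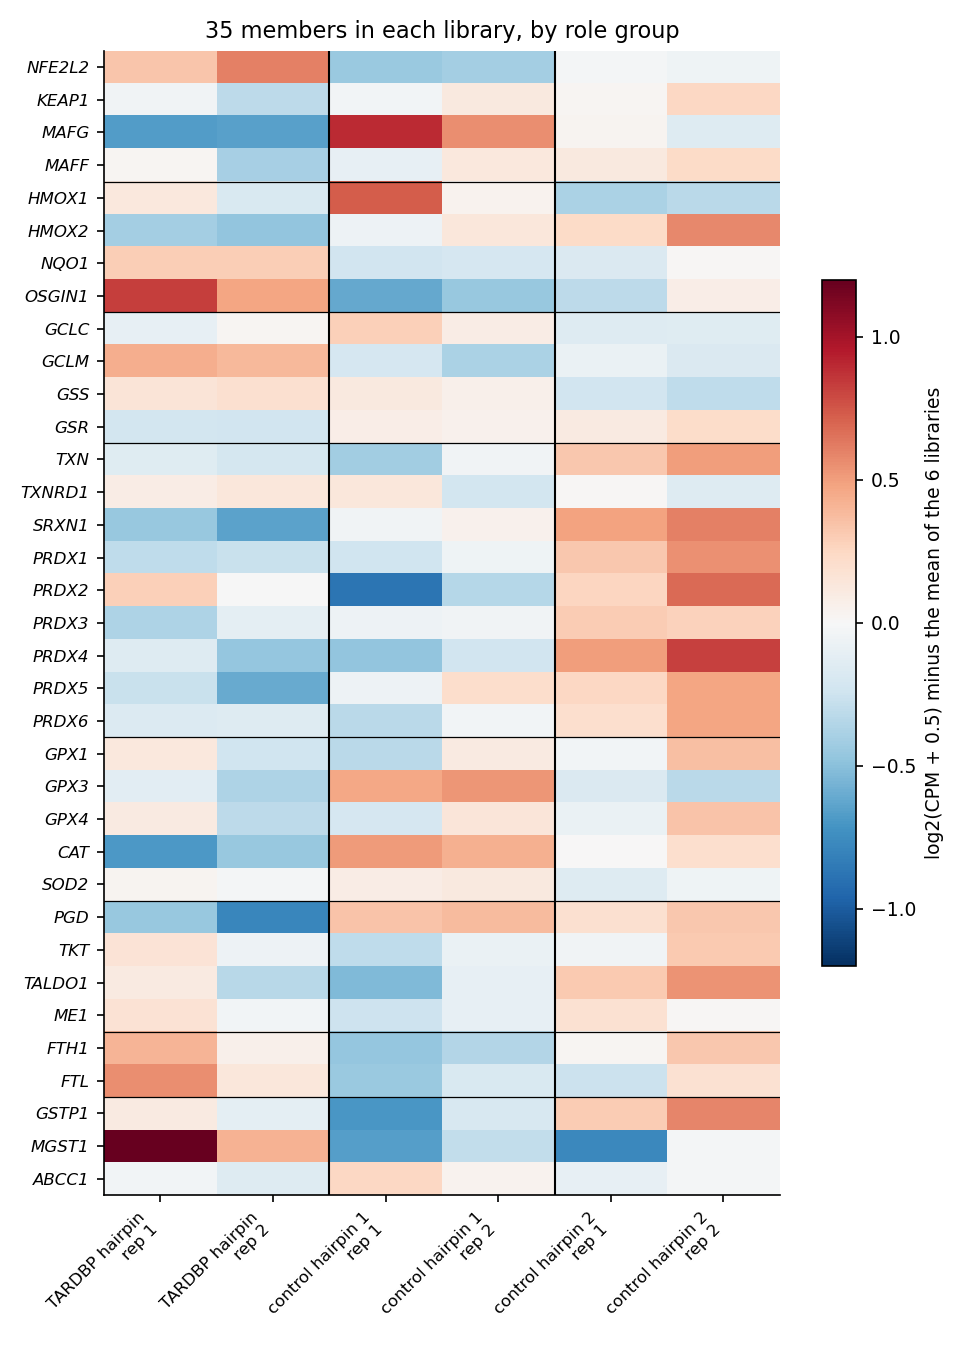
Level of each of the 35 members in each library as the difference in log2(CPM + 0.5) from that gene's mean over the 6 libraries, with members grouped by role down the page and the TARDBP hairpin libraries at the left. The thioredoxin and peroxiredoxin members are mostly highest in control hairpin 2, while NFE2L2, NQO1, OSGIN1 and GCLM are highest with the TARDBP hairpin.

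Among peroxidases and related enzymes, 2 of 5 fell and none rose against the mean, where 24.3% of all features fell. CAT, catalase, the peroxisomal enzyme that breaks down hydrogen peroxide, was at 6.57 and 7.79 CPM with the TARDBP hairpin, against 15.7 and 14.8 CPM with control hairpin 1, and 10.9 and 12.6 CPM with control hairpin 2. Both TARDBP hairpin libraries were below all 4 controls, and CAT fell to 0.536 times their mean (log2FC -0.90, SE 0.136, adjusted p = 9.55e-04). The log2FC of CAT was -1.08 against control hairpin 1 and -0.71 against control hairpin 2. GPX3, the secreted glutathione peroxidase, was at 7.81 and 6.49 CPM with the TARDBP hairpin, 11.98 and 12.6 CPM with control hairpin 1, and 7.53 and 6.74 CPM with control hairpin 2. GPX3 fell against control hairpin 1 (log2FC -0.78, SE 0.155, adjusted p = 0.00421) and overlapped control hairpin 2. Its call against the mean (adjusted p = 0.0468) was lost in 5 of the 6 fits that left out a library. The genes for GPX1, for the lipid hydroperoxide peroxidase GPX4 and for the mitochondrial superoxide dismutase SOD2 were called in none of the 4 comparisons. For SOD2 the 95% interval of the log2FC against the mean was -0.17 to 0.18.

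The NADPH that both the glutathione and the thioredoxin systems spend comes in part from the pentose phosphate pathway. Of the 4 members in this supply, 1 fell and none rose against the mean, a share at the background of 24.3% lower. PGD, phosphogluconate dehydrogenase, which makes NADPH in the oxidative branch, was at 72.8 and 57.8 CPM with the TARDBP hairpin, against 127 and 129.7 CPM with control hairpin 1, and 114 and 125 CPM with control hairpin 2. Both TARDBP hairpin libraries were below all 4 controls, and the difference between the controls was not called (adjusted p = 0.520). PGD fell to 0.527 times the mean (log2FC -0.92, SE 0.107, adjusted p = 2.49e-04), with a log2FC of -0.97 against control hairpin 1 and -0.87 against control hairpin 2.

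TKT and TALDO1, enzymes of the non-oxidative branch, and ME1, malic enzyme, were not called against the mean. TALDO1 fell against control hairpin 2 (adjusted p = 0.0416), a call lost without any 1 of 3 libraries. Outside the 35 members, RPIA of the same pathway was chosen after its values were seen. RPIA, ribose 5-phosphate isomerase, was at 6.00 and 8.10 CPM with the TARDBP hairpin, 18.6 and 15.3 CPM with control hairpin 1, and 10.4 and 9.85 CPM with control hairpin 2. It fell against the mean (log2FC -0.89, SE 0.162, adjusted p = 0.00236). Against control hairpin 2 alone, its call (adjusted p = 0.0437) was lost without any 1 of 3 libraries.

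Ferritin stores iron in a shell of heavy and light chains, FTH1 and FTL. FTH1 was at 977 and 770.1 CPM with the TARDBP hairpin, against 535 and 578 CPM with control hairpin 1, and 750.2 and 923 CPM with control hairpin 2. The TARDBP hairpin libraries were above control hairpin 1 (log2FC 0.65, SE 0.141, adjusted p = 0.00629) and overlapped control hairpin 2 (adjusted p = 0.735). Against the mean FTH1 rose (log2FC 0.36, SE 0.120, adjusted p = 0.0373), but the call was lost without replicate 1 of the TARDBP hairpin (log2FC 0.17, adjusted p = 0.361), and without either library of control hairpin 1 or replicate 1 of control hairpin 2. FTL was at 484 and 359.9 CPM with the TARDBP hairpin, against 241 and 289 CPM with control hairpin 1, and 274 and 372 CPM with control hairpin 2. Replicate 1 of the TARDBP hairpin was the highest library, while replicate 2 lay below replicate 2 of control hairpin 2. FTL rose against the mean (log2FC 0.53, SE 0.154, adjusted p = 0.0214) and against control hairpin 1 (adjusted p = 0.0176), and was not called against control hairpin 2 (adjusted p = 0.109). Without replicate 1 of the TARDBP hairpin the adjusted p of FTL against the mean was 0.216, and the call against control hairpin 1 was lost as well. Ferritin genes have many processed copies in the genome; the counts listed for 2 FTH1 pseudogenes were 0.258% of those of FTH1, and how reads shared between copies were assigned is unknown here.

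SLC40A1, ferroportin, the exporter of iron and a listed gene of the pathway outside the 35, was at 17.9 and 18.7 CPM with the TARDBP hairpin, against 5.45 and 4.55 CPM with control hairpin 1, and 8.63 and 9.61 CPM with control hairpin 2. Its groups did not overlap, and it rose 2.71-fold against the mean (log2FC 1.44, SE 0.122, adjusted p = 5.72e-05), with a log2FC of 1.87 against control hairpin 1 and 1.005 against control hairpin 2. NCOA4, the receptor that delivers ferritin to autophagy, was chosen after its values were seen. It was at 60.6 and 61.8 CPM with the TARDBP hairpin, against 124 and 113 CPM with control hairpin 1, and 96.02 and 85.2 CPM with control hairpin 2. NCOA4 fell against the mean (log2FC -0.76, SE 0.0873, adjusted p = 2.35e-04), with both TARDBP hairpin libraries below all 4 controls.

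**Figure D4:**
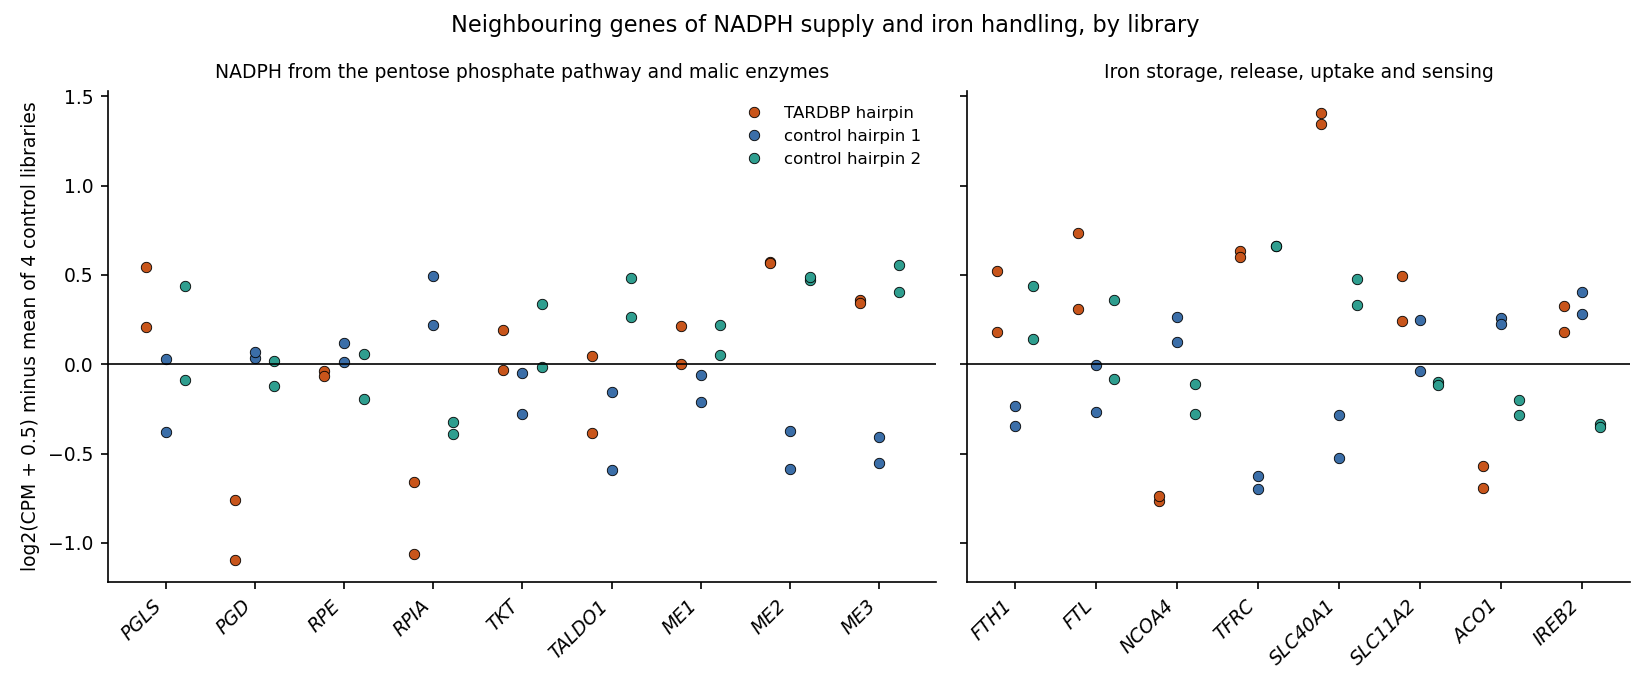
Level of NADPH supply genes (left) and iron genes (right) in each library, as the difference in log2(CPM + 0.5) from the mean of the 4 control libraries; each point is 1 library, with the TARDBP hairpin at the left of each gene. PGD, RPIA and NCOA4 are lower in both TARDBP hairpin libraries than in all 4 controls, SLC40A1 is higher in both, and the FTH1 and FTL points overlap those of control hairpin 2.

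Among conjugation and export genes, MGST1, a membrane-bound glutathione transferase, had 41 and 17 counts with the TARDBP hairpin, against 3 and 7 counts with control hairpin 1, and 2 and 11 counts with control hairpin 2. MGST1 passed the filter through the TARDBP hairpin libraries, so it had to be high there to be tested. Its log2FC against the mean was 2.38 (SE 0.554, adjusted p = 0.00795), and the call was lost without replicate 1 of the TARDBP hairpin (log2FC 1.62, adjusted p = 0.101), as were its calls against each control alone. GSTP1, a cytosolic glutathione transferase, was at 158 and 136 CPM with the TARDBP hairpin, 90.03 and 129 CPM with control hairpin 1, and 182 and 221 CPM with control hairpin 2. The TARDBP hairpin libraries lay between the controls, which differed (log2FC 0.88 for control hairpin 2 against control hairpin 1, adjusted p = 0.00432), and no comparison with the TARDBP hairpin called it. ABCC1, which exports glutathione conjugates, was called in none of the 4 comparisons.

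The control hairpins also differed from each other in this set. In control hairpin 2 against control hairpin 1, 16 of the 35 members were called, 11 higher and 5 lower, or 45.7% against a background of 43.2% (22.8% higher, 20.4% lower). The members' median log2FC was 0.28 and that of all features -0.01. For 13 of the 35 members the mean CPM with the TARDBP hairpin lay between the 2 control means, for 9 it was the highest of the 3 and for 13 the lowest. Without replicate 1 of control hairpin 1, or without replicate 2 of control hairpin 2, 8 members were called between the controls, 6 higher and 2 lower. Without replicate 1 of control hairpin 2, 2 were lower in place of 5, with 11 higher, and DESeq2 called 3 lower. Within a group, most members also differed between replicates in the same direction. Replicate 1 was above replicate 2 for 26 of 35 members with the TARDBP hairpin. Replicate 2 was above replicate 1 for 26 with control hairpin 1 and 27 with control hairpin 2. Neither these counts nor the order of the group means was set beside all features, so they are not results about the members. Between replicates the median fold was 1.19 with the TARDBP hairpin, 1.15 with control hairpin 1 and 1.14 with control hairpin 2.

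Beyond the 35 members, 76 of 80 further listed genes of NRF2 regulation, glutathione and thioredoxin, conjugation and export, and NADPH, superoxide and iron handling could be tested, and GPX2, GSTM1, AKR1C2 and SOD3 could not. Against the mean of both controls 21 rose and 19 fell, with a median log2FC of 0.03, so 52.6% were called, near the background of 48.2%. Against control hairpin 1, 16 rose and 14 fell, or 39.5% against a background of 42.9%. Over control hairpin 2, 19 rose and 22 fell, or 53.9% against 50.2%, and in control hairpin 2 against control hairpin 1, 25 were higher and 14 lower, or 51.3% against 43.2%. Of 11 further regulators of NRF2, 1 rose and 4 fell against the mean. Of 20 glutathione and thioredoxin genes, 5 rose and 5 fell, and of 25 conjugation and export genes, 7 rose and 4 fell. Of 20 genes of NADPH, superoxide and iron, 8 rose and 6 fell, where 23.9% of all features rose and 24.3% fell.

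The regulator that rose was BACH1, a repressor that competes with NRF2 for antioxidant response elements and is released by haem. BACH1 was at 110.1 and 105 CPM with the TARDBP hairpin, against 56.9 and 57.6 CPM with control hairpin 1, and 83.1 and 77.3 CPM with control hairpin 2. The 3 groups did not overlap, and BACH1 rose 1.59-fold against the mean (log2FC 0.67, SE 0.0733, adjusted p = 1.85e-04), with a log2FC of 0.91 against control hairpin 1 and 0.43 against control hairpin 2, the second of which was lost without replicate 2 of that control (adjusted p = 0.0575). SESN3, a stress-responsive sestrin, was at 171 and 198 CPM with the TARDBP hairpin, against 143 and 156 CPM with control hairpin 1, and 64.5 and 54.7 CPM with control hairpin 2. It rose against the mean (log2FC 0.97, SE 0.0961, adjusted p = 1.17e-04) and against control hairpin 2 (log2FC 1.63), and was not called against control hairpin 1 (adjusted p = 0.0588).

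SLC7A11, the cystine importer that feeds glutathione synthesis, was chosen after its values were seen. It was at 6.93 and 5.92 CPM with the TARDBP hairpin, against 1.53 and 0.979 CPM with control hairpin 1, and 5.11 and 3.34 CPM with control hairpin 2. The highest libraries were those with the TARDBP hairpin, and control hairpin 1 was the lowest. SLC7A11 rose against the mean (log2FC 1.48, SE 0.229, adjusted p = 0.00107) and against control hairpin 1 (log2FC 2.36), and was not called against control hairpin 2 (adjusted p = 0.0741).

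With the 4 controls pooled as 1 group, the rises of BACH1 (adjusted p = 0.0633), SESN3 (adjusted p = 0.251) and SLC7A11 (adjusted p = 0.204) and the fall of RPIA (adjusted p = 0.0977) were no longer called.

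The listed genes with the lowest p among those that fell were UGDH, ABCC4 and IDH2. UGDH, which makes the UDP-glucuronate used in glucuronidation, was at 13.2 and 15.9 CPM with the TARDBP hairpin, 30.1 and 28.3 CPM with control hairpin 1, and 35.7 and 37.1 CPM with control hairpin 2 (log2FC -1.16, SE 0.111, adjusted p = 9.79e-05). ABCC4, an exporter of organic anions, was at 15.6 and 16.1 CPM with the TARDBP hairpin, 35.8 and 30.3 CPM with control hairpin 1, and 34.1 and 34.2 CPM with control hairpin 2 (log2FC -1.08, SE 0.107, adjusted p = 1.16e-04). IDH2, the mitochondrial isocitrate dehydrogenase that makes NADPH, was at 16.7 and 13.3 CPM with the TARDBP hairpin, against 27.4 and 36.2 CPM with control hairpin 1, and 50.4 and 58.8 CPM with control hairpin 2 (log2FC -1.48, SE 0.155, adjusted p = 1.53e-04). In each of these genes both TARDBP hairpin libraries were below all 4 controls, and each fell against either control alone, with a log2FC against control hairpin 1 of -1.002, -1.06 and -1.09 and against control hairpin 2 of -1.32, -1.11 and -1.87 for UGDH, ABCC4 and IDH2.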

How the data were processed

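Ribosomal-depleted total RNA was made into strand-specific libraries, per the labels' protocols. The deposited files hold whole-number read counts per gene or repeat family made by the authors, 1 file per library. Reads were aligned to hg19 with STAR 2.5.2b after bcl2fastq, per the submitters' processing notes. The counter and annotation, and how strand and multiply matched reads were handled, were not given in the sources used here; near-identical copies may share reads. Totals were 18605745 to 21698339 counts.

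Here the counts were analysed with edgeR 4.0.16 and limma 3.58.1 in R 4.3.3: features passing filterByExpr (minimum count 10, minimum total 15; 17163 of 28953), TMM scaling, and the quasi-likelihood test in 1 model of the 3 groups and all 6 libraries (3 residual degrees of freedom), with Benjamini-Hochberg adjustment over all features tested. CPM uses TMM-scaled totals over all features. Intervals cover 95% under that model. The script was tested on simulated data, where it recovered 43% of 1.5-fold and 88% of 2-fold changes. Of its 141 calls there, 10 were of unchanged features. The simulated controls did not differ and few features changed, unlike here, so these rates may not hold for these data. The contrasts were the TARDBP hairpin against the mean of both controls and each control alone, and control hairpin 2 against control hairpin 1. DESeq2 1.42.0 and the other alternatives are in the closing section. The members and lists were chosen with earlier results of these data known. Values per library are given for members called the same way against the mean and each control and for standard NRF2 targets; of the other listed genes, up to 3 per direction with the lowest p were named, and RPIA, SLC7A11, NCOA4 and further members were added after their values were seen. The result for 1 listed gene is not reported here. Promoter windows are RefSeq's on GRCh38.p14 and were matched by symbol; coordinates of the counted features were not used. By a chi-square test, libraries of 1 group differed by more than sampling noise, so none was merged as a duplicate; this does not tell whether cultures were separate.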

Additional observations from a re-analysis of the deposited data

How the results depend on the processing

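With 2 libraries per group, single libraries decide many calls, and no group could be checked for outlying libraries. Over all 35 members, 4 comparisons and the alternatives run, 1959 values were compared: 1701 kept direction and side of the threshold, 167 lost the call, 23 gained one and 68 changed sign, none of them called in either fit and the largest, of MGST1, at 1.19 in size. Another scaling (RLE, or none), no filter on low counts, genes alone, DESeq2 and only the libraries compared kept every total of calls within 1.5 times of the values reported. DESeq2 called 17 members against the mean, 15 against control hairpin 1, 19 against control hairpin 2 and 14 between the controls, 3 of these lower in place of 5. Of all 17163 features it called 7187, 6397, 7424 and 6398 in that order. It did not call NQO1 against control hairpin 2 or GSR against control hairpin 1. With a test against a 1.5-fold change the features called numbered 2462, 2622, 2981 and 2110 in that order of comparisons and the members 6, 5, 3 and 2. With the 4 controls pooled, 2572 features and 6 members were called against them, since the difference between the control hairpins then enters the spread.

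Leaving out each library in turn gave 4328 to 7344 features and 8 to 15 members called between the controls. Of the sign changes, 47 came from these fits. Among NRF2, KEAP1 and the standard targets, the uncalled log2FC values that changed sign there ranged, for GCLC against the mean, from -0.121 to 0.00296; for HMOX1 against the mean, from -0.257 to 0.162; for FTH1 against control hairpin 2, from -0.122 to 0.224; for TXNRD1 against control hairpin 1, from -0.0317 to 0.33, and between the controls, from -0.207 to 0.154; and for KEAP1 between the controls, from -0.0128 to 0.199. The cause was not tested.

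The groups share replicate numbers, but nothing says that a number marks a shared source. Across features, the difference of replicate 1 and replicate 2 correlated at -0.228 between the TARDBP hairpin and control hairpin 1, -0.247 between the TARDBP hairpin and control hairpin 2, and 0.232 between the controls. With a replicate block, 16 members were called against the mean, 15 against control hairpin 1, 18 against control hairpin 2 and 15 between the controls. Of all 17163 features, 7643, 6745, 7973 and 6670 were called in that order. GSR was then not called against control hairpin 1 (adjusted p = 0.0595).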
